A study of Mus musculus with 6 samples.

Results

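The miR-15/miR-16/miR-195/miR-497 family comprises microRNAs (miRNAs), short RNAs that guide the repression of messenger RNAs, made from 6 mouse hairpins in 3 genomic clusters, and 10 of its mature forms were described here. The members were chosen by name from the deposited count table, as both arms of mmu-miR-15a, miR-15b, miR-16 and miR-195a and the 5p arm of miR-497a, with the row of the highest total kept for each name. They are 10 of 1915 mature miRNA names, and all 10 were among the 677 miRNAs with enough counts to be tested. The libraries came from cultured endothelial progenitor cells (EPCs), which were grown from mouse bone marrow and are studied for their part in vascular repair. One group of 3 libraries came from male C57BL/6J mice that had breathed concentrated ambient fine particulate matter (CAP), and the other 3 from mice of the same sex and strain that had breathed filtered air (air). The cells of both groups were cultured without further treatment for 12 days by the labels, no allele or agent set the groups apart other than the inhaled air, and the comparison addressed which miRNAs differed with the exposure. Each group's mice shared 1 cage, so that effects of the cage and of the exposure cannot be told apart, and p-values measure the spread between 3 libraries of 1 cage.

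A miRNA recognises its targets mainly through the seed, bases 2 to 8 from its 5′ end, and one arm of a hairpin (the guide, here the 5p arm) is usually retained while the other (the passenger, here 3p) is mostly degraded. The guides of the family share a seed and are known to repress cyclins, cyclin-dependent kinases and the survival factor BCL2, and so to hold cells before DNA synthesis. In human blood the miR-15a/16-1 locus is a tumour suppressor lost in chronic lymphocytic leukaemia, and in endothelial cells members of the family are known to limit VEGF and FGF signalling.

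The 5 guides are shown because their common seed, in capitals, is what makes them a family, while the remaining bases are what tells their reads apart (RefSeq, GRCm38, 5′ to 3′).
mmu-miR-16-5p: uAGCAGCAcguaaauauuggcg
mmu-miR-195a-5p: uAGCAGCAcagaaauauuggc
mmu-miR-15a-5p: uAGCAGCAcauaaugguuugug
mmu-miR-15b-5p: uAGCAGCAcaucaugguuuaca
mmu-miR-497a-5p: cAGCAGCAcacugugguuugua
The closest pair, miR-16-5p and miR-195a-5p, had the same base at 19 of 21 positions counted from the 5′ end, and miR-15a-5p and miR-15b-5p at 18 of 22. The pair farthest apart, miR-16-5p and miR-497a-5p, shared 11 of 22.

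The 5 passengers are shown because they carry 5 different seeds, again in capitals, and because the miR-16-1 and miR-16-2 hairpins, whose 5p arm is the same molecule, can be told apart only by them.
mmu-miR-16-1-3p: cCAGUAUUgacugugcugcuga
mmu-miR-16-2-3p: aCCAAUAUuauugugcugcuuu
mmu-miR-15a-3p: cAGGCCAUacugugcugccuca
mmu-miR-15b-3p: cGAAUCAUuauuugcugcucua
mmu-miR-195a-3p: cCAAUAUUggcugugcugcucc

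The clusters lie on different chromosomes. Mir16-1 (chromosome 14, 61631880 to 61631972 on GRCm38, minus strand) and Mir15a (61632027 to 61632110) were 54 bases apart in introns of the long non-coding RNA gene Dleu2, and 13 bases of an exon of another Dleu2 transcript overlapped Mir16-1. Mir15b (chromosome 3, 69009772 to 69009835, plus strand) and Mir16-2 (69009902 to 69009996) were 66 bases apart in an intron of Smc4, which encodes a condensin subunit. Mir497 (chromosome 11, 70234717 to 70234800, plus strand) and Mir195a (70235042 to 70235135) were 241 bases apart, and no gene other than a miRNA gene overlapped them in the annotation used.

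None of the 10 members passed an adjusted p of 0.05 in the comparison of CAP with air by edgeR's quasi-likelihood test, where 0% of all tested miRNAs passed. At an unadjusted p under 0.05 there were 2 members, miR-16-5p and miR-16-1-3p, both higher in CAP, against a background of 21% of all tested miRNAs. The levels of 4 members did not overlap between the groups, miR-16-5p, miR-16-1-3p and miR-15b-3p with higher and miR-195a-5p with lower values in CAP, against a background of 29%. These are levels after TMM scaling, and as plain shares of all counts only miR-16-5p and miR-195a-5p did not overlap, 2 members against 27.8% of all tested miRNAs. DESeq2 called none of the members and 4.25% of 706 miRNAs. The median log2 fold change of the 10 members was -0.005, beside 0.004 over all tested miRNAs, with 5 members above and 5 below 0. Among the guides 1 of 5 and among the passenger members 4 of 5 had a fold change above 0. The remaining passenger of these hairpins, miR-497a-3p, was not one of the 10 and lay below 0, at 2.88, 1.61 and 4.07 CPM in CAP, against 3.12, 3.40 and 4.43 CPM in air (log2 fold change -0.36 ± 0.35 (SE), adjusted p = 0.561 by edgeR).

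Libraries held 13831209 to 18107578 counts in all once each name had 1 row, and levels are given as CPM, that is, counts per 1e+06 counts of a library after TMM scaling. CAP replicate 1 stood apart in the liver miRNA miR-122-5p, at 24731 CPM against 75.0 to 277 CPM in the other 5 libraries. All CAP libraries differed more among themselves (chi-square per degree of freedom 461 to 920) than air libraries did (67.6 to 167). Endothelial miR-126a-3p, at 749 to 2760 CPM in CAP and 1516 to 4005 CPM in air, was present in every library, as were the 5 myeloid markers tested, which summed to 60902 to 76475 CPM in CAP and 57991 to 71623 CPM in air.

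**Figure D1:**
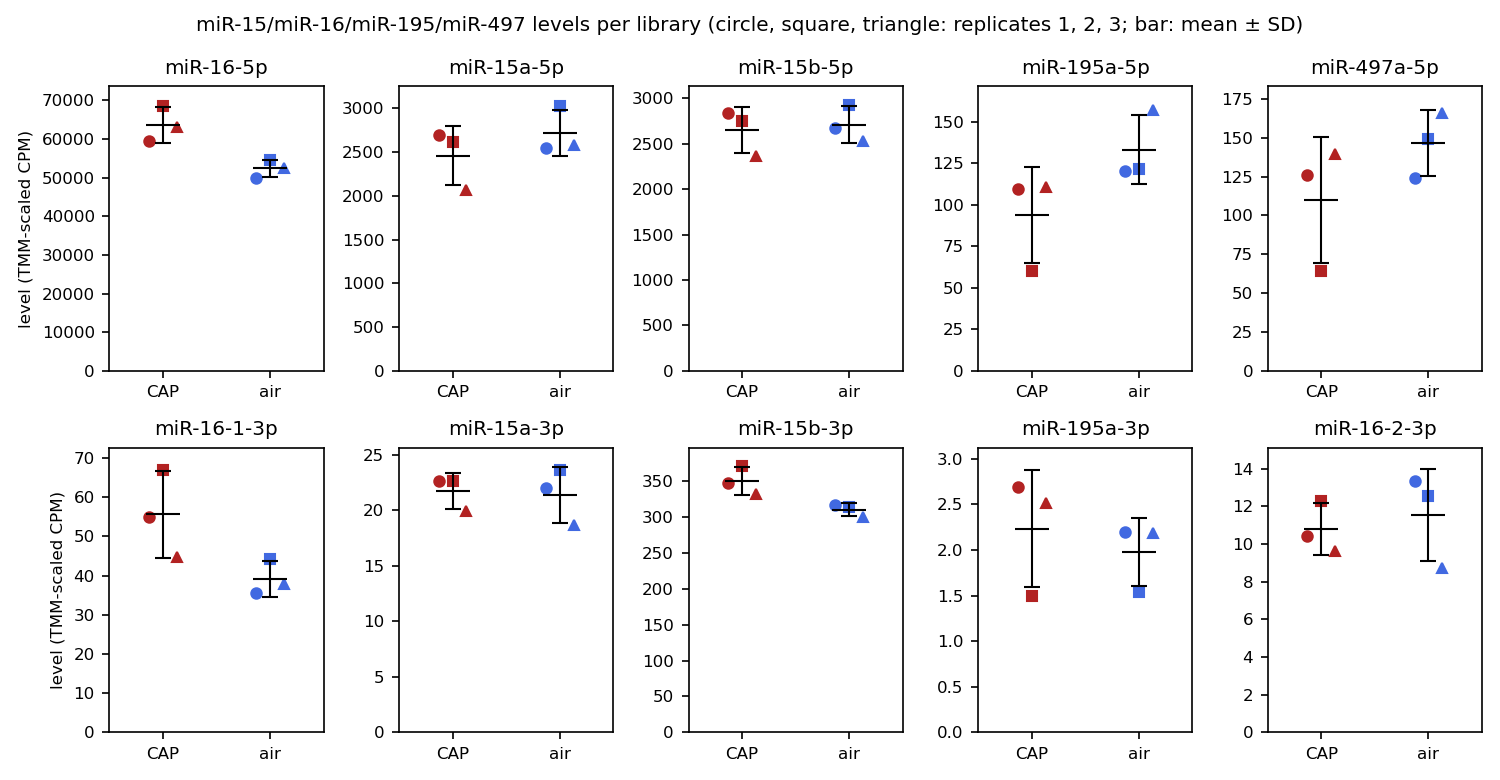
Level of each member in each library, in TMM-scaled CPM, with the guides on top and the passengers below. Points are libraries and bars are the mean ± SD of 3 libraries; CAP libraries lie above all air libraries for miR-16-5p and below them for miR-195a-5p, and above them on this scale, but not as unscaled shares of counts, for miR-16-1-3p and miR-15b-3p.

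miR-16-5p was the third most abundant miRNA of all those tested and far the most abundant member. Its level was 59345, 68562 and 62954 CPM in CAP replicates 1, 2 and 3, against 49972, 54554 and 52544 CPM in air replicates 1, 2 and 3. Every CAP library was thus above every air library, with means of 63620 ± 4644 CPM in CAP and 52357 ± 2297 CPM in air (SD, n = 3 each). The log2 fold change was 0.28 ± 0.07 (SE), or 1.22-fold, with an adjusted p of 0.146 by edgeR and 0.235 by DESeq2, and neither passed. As a share of all counts, with no TMM scaling, miR-16-5p took 5.95, 6.84 and 6.15% in CAP, against 5.23, 5.48 and 5.11% in air. Its reads come from the hairpins of both miR-16 loci, and the deposited row of the miR-16-2 hairpin held 0.190 to 0.319% fewer counts than that of the miR-16-1 hairpin, so the level says nothing of which locus supplied it.

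The passengers of the 2 miR-16 hairpins are each made by 1 locus. miR-16-1-3p, from the Dleu2 locus, was at 55.0, 67.0 and 44.8 CPM in CAP, against 35.5, 44.2 and 37.8 CPM in air. CAP replicate 3 was only just above air replicate 2, and as unscaled shares of all counts it was below it, at 0.00438% in CAP replicate 3 against 0.00444% in air replicate 2. The log2 fold change of 0.51 ± 0.17 (SE) had an adjusted p of 0.168 by edgeR and 0.124 by DESeq2. miR-16-2-3p, from the Smc4 locus, was at 10.4, 12.3 and 9.62 CPM in CAP, against 13.3, 12.5 and 8.73 CPM in air. Here the groups overlapped, with a log2 fold change of -0.10 ± 0.21 (SE) and an adjusted p of 0.807 by edgeR. Within a library, where no scaling enters, miR-16-1-3p had 5.28, 5.45 and 4.66 times the counts of miR-16-2-3p in CAP, against 2.66, 3.53 and 4.33 times in air. The CAP ratios were all above the air ratios, by 1.49-fold on average, with an exact two-sided permutation p of 0.1 (n = 3 each), the smallest p that 3 against 3 can give.

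The levels of the miR-15 guides, transcribed beside the miR-16 hairpins, overlapped between the groups. miR-15a-5p was at 2698, 2608 and 2069 CPM in CAP, against 2550, 3021 and 2578 CPM in air. Its groups overlapped, CAP replicate 3 was the lowest library and air replicate 2 the highest, and the log2 fold change was -0.14 ± 0.13 (SE), with an adjusted p of 0.546 by edgeR. Leaving out 1 library moved it to between -0.28, without CAP replicate 1, and -0.05, without CAP replicate 3. miR-15b-5p was at 2838, 2751 and 2360 CPM in CAP, against 2667, 2928 and 2530 CPM in air. It overlapped likewise, with a log2 fold change of -0.03 ± 0.11 (SE), and both directions depended on the scaling, since upper-quartile scaling, which moved the median of all miRNAs to 0.15, gave 0.0035 for miR-15a-5p and 0.11 for miR-15b-5p. miR-15b-5p was above miR-15a-5p in 3 of 3 CAP libraries and in 1 of 3 air libraries, and the 2 levels were not separated. The ratio of miR-15a-5p to miR-15b-5p was 0.951, 0.948 and 0.877 in CAP, against 0.956, 1.03 and 1.02 in air, an exact two-sided permutation p of 0.1 (n = 3 each). The ratio of miR-16-5p to miR-15a-5p, chosen after values were seen and so given with no test, was 22.0, 26.3 and 30.4 in CAP, against 19.6, 18.1 and 20.4 in air.

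The difference between the passengers of the 2 miR-15 hairpins was not tested. miR-15b-3p was at 347, 370 and 331 CPM in CAP, against 317, 313 and 300 CPM in air. All CAP libraries were higher on this scale, though by little, and as unscaled shares of all counts CAP replicate 3, at 0.0324%, was below air replicate 1, at 0.0332%. It had a log2 fold change of 0.17 ± 0.09 (SE) and an adjusted p of 0.321 by edgeR. miR-15a-3p was at 22.6, 22.7 and 19.9 CPM in CAP, against 22.0, 23.6 and 18.6 CPM in air, a log2 fold change of 0.02 ± 0.14 (SE). It overlapped between the groups. The ratio of miR-15a-3p to its cluster partner miR-16-1-3p was 0.412, 0.338 and 0.444 in CAP, against 0.621, 0.534 and 0.493 in air, lower in every CAP library (log2 difference -0.47, exact two-sided permutation p = 0.1, n = 3 each).

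**Figure D2:**
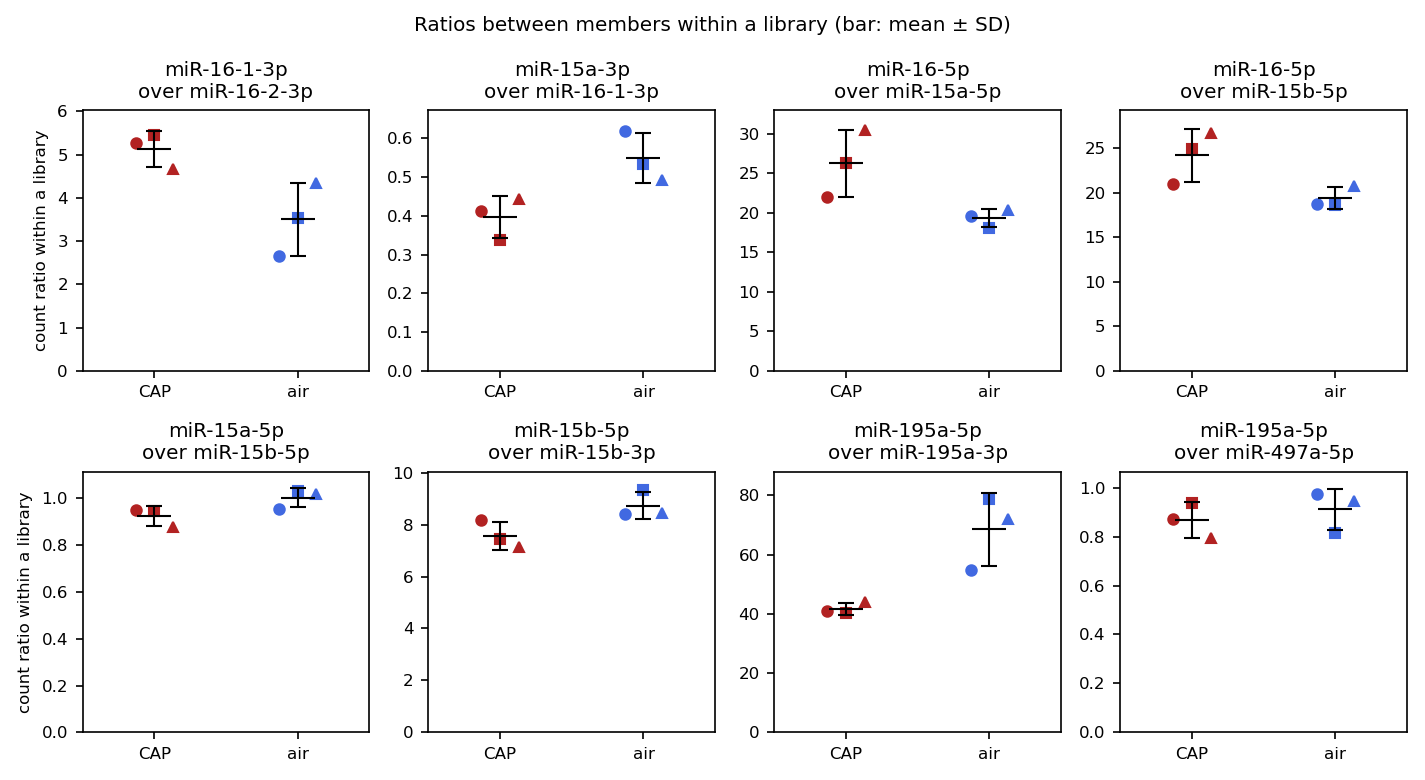
Ratios of the counts of pairs of members within each library, with no scaling between libraries. Points are libraries and bars are the mean ± SD of 3 libraries; the ratio of miR-16-1-3p to miR-16-2-3p was 4.66 to 5.45 in CAP and 2.66 to 4.33 in air, while that of miR-195a-5p to miR-497a-5p overlapped between the groups.

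The guides of the chromosome 11 cluster had lower values in CAP. miR-195a-5p was at 110, 60.2 and 111 CPM in CAP, against 120, 122 and 157 CPM in air. Every CAP library was below every air library, but CAP replicates 1 and 3 lay close to air replicate 1, and CAP replicate 2 was far lower. The log2 fold change was -0.51 ± 0.25 (SE), with an adjusted p of 0.287 by edgeR and 0.235 by DESeq2, and it was -0.29 without CAP replicate 2. miR-497a-5p was at 126, 64.1 and 140 CPM in CAP, against 124, 149 and 166 CPM in air. Its groups overlapped, CAP replicate 2 was again the lowest library, and the log2 fold change of -0.41 ± 0.28 (SE, adjusted p = 0.425 by edgeR) was -0.16 without that library. miR-195a-5p and miR-497a-5p moved together across libraries (Pearson r = 0.97 of log2 CPM, n = 6, a description only, of values that share library and scaling), and their ratio was 0.871, 0.939 and 0.794 in CAP, against 0.972, 0.815 and 0.944 in air (exact two-sided permutation p = 0.5, n = 3 each).

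miR-195a-3p, the scarcest member, was at 2.69, 1.50 and 2.52 CPM in CAP, against 2.19, 1.54 and 2.18 CPM in air. The groups overlapped, and the lowest library held 25 counts, for which counting alone gives a coefficient of variation of 20.0%. Its log2 fold change of 0.17 ± 0.30 (SE) turned to -0.04 without CAP replicate 1 and to -0.0015 without air replicate 2. The guide to passenger ratio of the miR-195a hairpin was 40.8, 40.3 and 44.1 in CAP, against 54.9, 78.9 and 71.9 in air. It was lower in every CAP library (log2 difference -0.70, exact two-sided permutation p = 0.1, n = 3 each). The same ratio of the miR-15b hairpin was 8.17, 7.43 and 7.12 in CAP, against 8.42, 9.35 and 8.43 in air, also lower in every CAP library (log2 difference -0.21, exact two-sided permutation p = 0.1, n = 3 each). That of the miR-15a hairpin overlapped, at 119, 115 and 104 in CAP, against 116, 128 and 138 in air (exact two-sided permutation p = 0.2, n = 3 each). Both ratios of miR-16-5p to a passenger overlapped as well and lay in opposite directions. Over miR-16-1-3p it was 1079, 1024 and 1404 in CAP, against 1409, 1234 and 1390 in air (log2 difference -0.21, exact two-sided permutation p = 0.3, n = 3 each). Over miR-16-2-3p it was 5691, 5576 and 6544 in CAP, against 3746, 4354 and 6021 in air (log2 difference 0.36, exact two-sided permutation p = 0.3, n = 3 each). The ratio of miR-15b-3p to its cluster partner miR-16-2-3p overlapped too, at 33.3, 30.1 and 34.4 in CAP, against 23.8, 25.0 and 34.4 in air (exact two-sided permutation p = 0.3, n = 3 each). The ratio of miR-195a-5p to miR-16-5p was 0.00185, 0.000878 and 0.00176 in CAP, against 0.00241, 0.00223 and 0.00299 in air. It was lower in every CAP library, by the largest log2 difference of these ratios (-0.83, exact two-sided permutation p = 0.1, n = 3 each). Without CAP replicate 2 the log2 difference was -0.48, and that of miR-195a-5p to miR-195a-3p was larger, at -0.68. The 11 ratios between members and the sum of the guides made 12 comparisons, of which 7 did not overlap between the groups. Several share a member, among them miR-16-5p, miR-16-1-3p and miR-195a-5p, whose own levels did not overlap, so the 7 are not separate results. No background share was computed for ratios of other miRNAs. The smallest adjusted p of the 12 comparisons was 0.171. With 3 against 3 no p can be under 0.1, so that no comparison could pass 0.05.

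**Figure D3:**
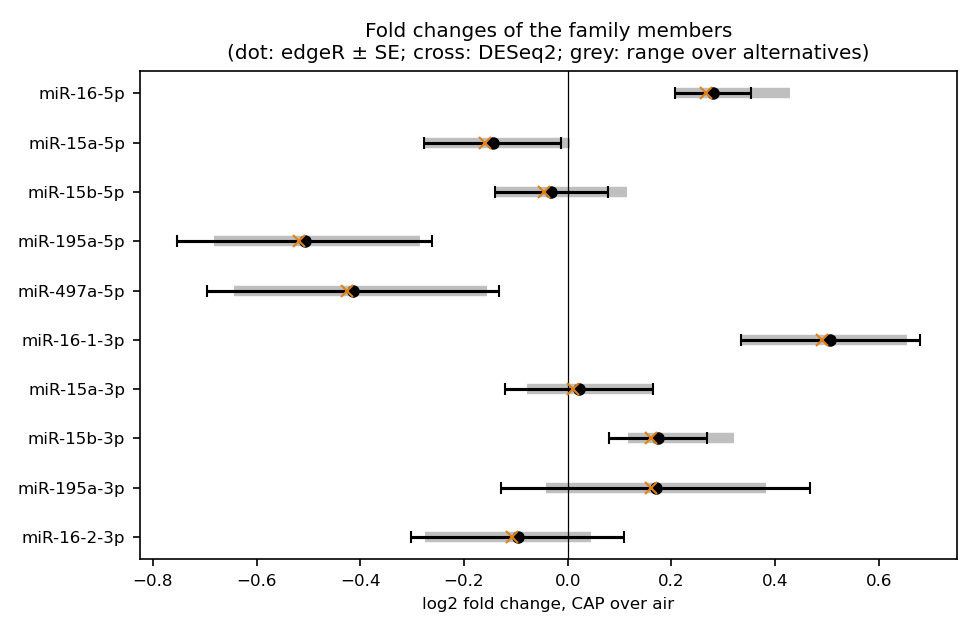
Log2 fold change of CAP over air for each member, where positive values mean higher in CAP. Dots with bars are edgeR estimates ± SE, crosses are DESeq2 estimates and grey bars span the alternative settings; the grey bars of miR-16-5p and miR-16-1-3p lie above 0 and those of miR-195a-5p and miR-497a-5p below 0.

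Because targets see the guides together through 1 seed, the 5 guides were also summed. The sum was 65117, 74046 and 67633 CPM in CAP, against 55434, 60775 and 57976 CPM in air. Every CAP library was above every air library (log2 difference 0.25, exact two-sided permutation p = 0.1, n = 3 each). The sum followed miR-16-5p, which made up 91.1, 92.6 and 93.1% of it in CAP, against 90.1, 89.8 and 90.6% in air. miR-15a-5p made up 4.14, 3.52 and 3.06% of the sum in CAP, against 4.60, 4.97 and 4.45% in air, and miR-195a-5p and miR-497a-5p each less than 0.29% in any library. These shares compare different miRNAs, whose capture in a library can differ with their sequence.

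In order of mean level over the 6 libraries the members ran miR-16-5p, miR-15b-5p, miR-15a-5p, miR-15b-3p, miR-497a-5p, miR-195a-5p, miR-16-1-3p, miR-15a-3p, miR-16-2-3p and miR-195a-3p. Neighbours with overlapping ranges were miR-15b-5p and miR-15a-5p, miR-497a-5p and miR-195a-5p, and miR-195a-5p and miR-16-1-3p. The passenger of miR-15b was thus more abundant than both guides of the chromosome 11 cluster.

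**Figure D4:**
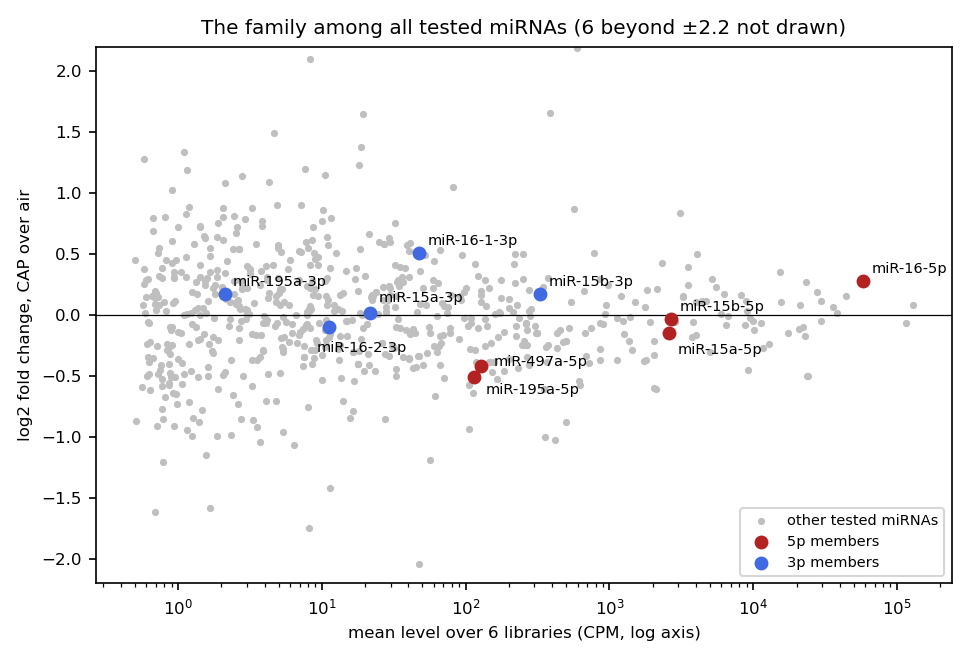
Log2 fold change of CAP over air against mean level over 6 libraries (CPM, log axis) for all tested miRNAs in grey, with the 5p members in red and the 3p members in blue. Members span levels from miR-195a-3p to miR-16-5p, and no member lies beyond a fold change of 0.51 on the log2 scale in either direction.

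Of 1623 names with a reference sequence, 11 had bases 2 to 7 of miR-16-5p, and the 6 outside the family were read beside it. Of these, 2 were abundant enough to test and are shown because they extend the seed beyond the family, with bases 2 to 8 in capitals.
mmu-miR-322-5p: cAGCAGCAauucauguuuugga
mmu-miR-503-5p: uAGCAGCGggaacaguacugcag
Both are made from 1 cluster on the X chromosome and are known to restrain the cell cycle and, for miR-503, angiogenesis. miR-322-5p was at 1982, 1580 and 2070 CPM in CAP, against 1993, 2166 and 2364 CPM in air, a log2 fold change of -0.21 ± 0.13 (SE, adjusted p = 0.390 by edgeR) with overlapping groups. miR-503-5p was at 207, 177 and 205 CPM in CAP, against 232, 249 and 314 CPM in air. Its groups did not overlap, and the log2 fold change of -0.43 ± 0.14 (SE) had an adjusted p of 0.162 by edgeR and 0.124 by DESeq2. Of the other 4 names, miR-195b had 0 to 5 counts per library and was not tested, and miR-6342, miR-6353 and miR-6419 had no counts, which allows up to 0.166 to 0.222 CPM per library for counting error only.

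A list of 17 other miRNAs known to act on the step into DNA synthesis did not separate those that restrain it from those that promote it. Of the 17, 16 were tested, 8 with fold changes above and 8 below 0. None passed the adjusted threshold of edgeR, 3 of 16 were under an unadjusted p of 0.05, where 21% of all tested miRNAs were, so that the list did not exceed the background, and the median log2 fold change was -0.02, beside 0.004 over all tested miRNAs. Those 3 were miR-34b-5p, miR-34c-5p and miR-26a-5p, all lower in CAP. miR-34b-5p, whose gene p53 activates, was at 419, 272 and 370 CPM in CAP, against 638, 637 and 678 CPM in air, a log2 fold change of -0.88 with an adjusted p of 0.146 by edgeR and of 0.000801 by DESeq2. miR-34c-5p, from the same transcript, was also lower (log2 fold change -0.60, adjusted p of 0.146 by edgeR and 0.0305 by DESeq2). miR-26a-5p averaged 7821 ± 741 CPM in CAP and 10690 ± 1477 CPM in air (SD, n = 3 each). The fourth by p was the MYC-driven miR-17-5p (log2 fold change 0.50) with an adjusted p of 0.246 by edgeR.

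The miRNAs whose log2 CPM were most like those of the members over the 6 libraries were read from 178 with a mean of at least 100 CPM, as a description only. For miR-16-5p they were miR-25-3p (r = 0.99), miR-27b-3p (r = 0.98) and miR-98-5p (r = 0.96). For miR-195a-5p they were miR-322-5p (r = 0.98), miR-34b-3p (r = 0.97) and miR-199b-5p (r = 0.97). miR-199b-5p had 71.2, 28.0 and 119 CPM in CAP, against 114, 124 and 178 CPM in air, and CAP replicate 2 was the lowest library as for miR-195a-5p. The levels of miR-16-5p and miR-195a-5p, the closest pair of guides in sequence, had r = -0.82 (n = 6). This r was taken over both groups together, between which both miRNAs lay without overlap and in opposite directions, so it is not a separate result.

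Some markers of other cells moved with some members. The 5 markers of stromal and smooth muscle cells all had fold changes below 0. By edgeR 0 of 5 passed the adjusted threshold, as did 0% of all tested miRNAs. DESeq2 called only miR-214-3p of the 5 (adjusted p = 0.00134), beside 4.25% of 706 miRNAs. Its log2 fold change by edgeR was -1.02. The 5 markers summed to 41931, 39066 and 57201 CPM in CAP, against 54206, 52802 and 65772 CPM in air. CAP replicate 2 was lowest in this sum, as in miR-195a-5p and miR-497a-5p, and air replicate 3 was highest in all of them. Of the markers in the sum, miR-143-3p and miR-145a-5p were instead lowest in CAP replicate 1. They had 17415 and 1384 CPM there, against 19804 and 1533 CPM in CAP replicate 2. The 2 endothelial markers summed to 3675, 947 and 1904 CPM in CAP, against 2743, 1953 and 5120 CPM in air, with CAP replicate 2 lowest and air replicate 3 highest. The 5 myeloid markers had fold changes above 0, and their sum of 73324, 76475 and 60902 CPM in CAP, against 57991, 71623 and 61472 CPM in air, overlapped between the groups, while miR-16-5p did not. Of these markers miR-155-5p alone did not overlap, at 834, 1126 and 812 CPM in CAP, against 684, 656 and 603 CPM in air. Its log2 fold change was 0.51 (adjusted p = 0.157 by edgeR), and 29% of all tested miRNAs did not overlap either. The 5 erythroid markers, of interest because the miR-15/16 loci are active in blood cells, summed to 97.2, 30.1 and 38.7 CPM in CAP, against 33.6, 49.9 and 31.5 CPM in air. Of these, 4 had fold changes above 0. The other, miR-486a-3p, lay below 0 without overlap, at 4 to 20 counts per library (log2 fold change -1.61, adjusted p = 0.146 by edgeR). CAP replicate 1 was the highest library in the erythroid sum and in liver miRNAs, and the lowest CAP library in miR-16-5p. Whether these are linked was not tested. The 3 lymphoid markers had fold changes below 0, the 4 epithelial markers above 0, and of 3 muscle markers 1 lay above and 2 below 0, with none past edgeR's adjusted threshold. None of these markers was at 0 in every library. Fewer cells of a type and less of a miRNA per cell cannot be told apart in bulk RNA, and the part of the cell mixture in these values was not tested.

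**Figure D5:**
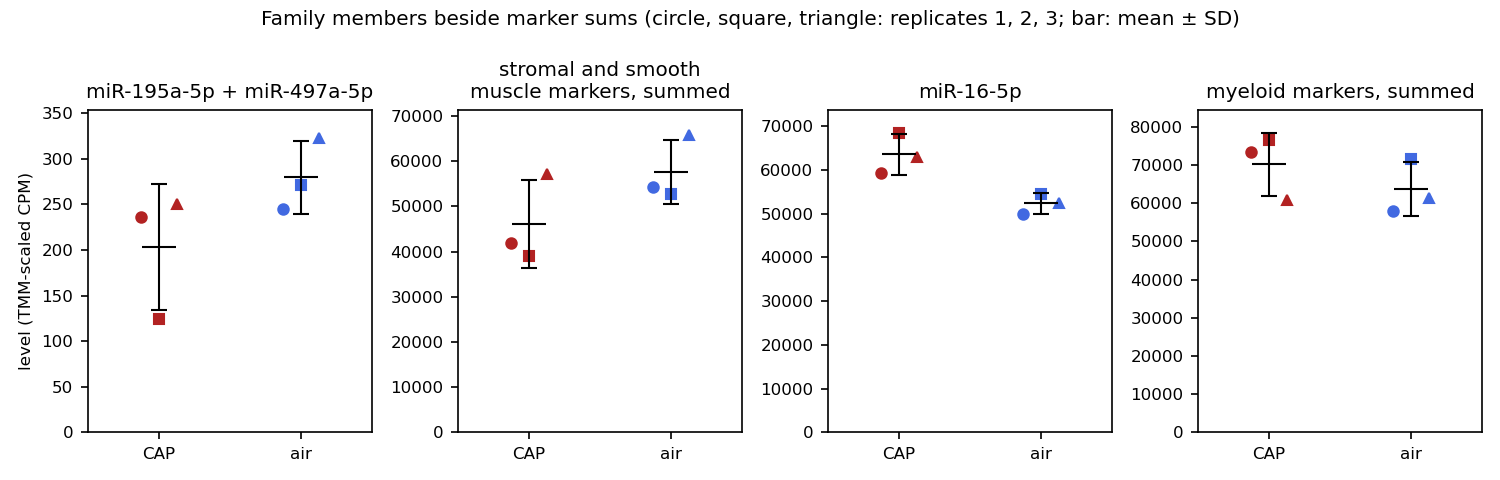
Sum of miR-195a-5p and miR-497a-5p beside the sum of 5 stromal and smooth muscle markers, and miR-16-5p beside the sum of 5 myeloid markers, per library in TMM-scaled CPM. Points are libraries and bars are the mean ± SD of 3 libraries. CAP replicate 2 (square) is lowest and air replicate 3 (triangle) highest in both panels on the left. Taken singly, the stromal and smooth muscle markers miR-143-3p and miR-145a-5p were lowest in CAP replicate 1.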

How the data were processed

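The authors deposited raw read counts, with 2061 rows that each join a mature miRNA to a hairpin, for 6 libraries. By the study's methods these were QIAseq miRNA libraries sequenced on an Illumina NextSeq instrument, and reads were trimmed with Trimmomatic, mapped to mm10 with mirDeep2 and bowtie and quantified against miRBase. The submitters' processing notes name bcl2fastq 20.0.422. Collapsing by molecular identifiers is not stated, and a read that fits 2 hairpins was counted at both. The labels give 12 days of culture and the methods another time.

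Groups came from the sample titles. All miRNAs were tested in 1 fit with edgeR 4.0.16 in R 4.3.3 (default expression filter, TMM scaling, quasi-likelihood test, Benjamini-Hochberg adjustment over 677 miRNAs, threshold 0.05). SE were derived from the F statistic. DESeq2 1.42.0, the study's own tool, and limma 3.58.1 (voom) were alternatives. The edgeR, limma-voom and DESeq2 fits were tested on simulated counts. Ratios used exact two-sided permutation tests (scipy 1.17.1). Plots used matplotlib 3.10.9.

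The text names all members, miRNAs with the seed of miR-16-5p from base 2 to 7, up to 4 of a list of miRNAs acting on entry into DNA synthesis by smallest p, and the 3 most correlated miRNAs for 2 members. Marker miRNAs are named as lists. Members and lists were chosen with earlier results of these data known. Sequences are from RefSeq (GRCm38.p6) and genes from GENCODE M21.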

Additional observations from a re-analysis of the deposited data

How the results depend on the processing

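No member passed an adjusted p of 0.05 under any of the 15 alternatives, which were other scalings, no filter, summed rows, removal of the 5 most abundant miRNAs, DESeq2, limma-voom, a replicate block and each library left out, while 1 to 3 members had an unadjusted p under 0.05. Over all miRNAs edgeR called 0 of 677, 13 of 1496 without the filter, and DESeq2 30 of 706. The direction of miR-16-5p, miR-16-1-3p, miR-15b-3p, miR-195a-5p and miR-497a-5p held in all of them that gave a value, with log2 fold changes of 0.21 to 0.43, 0.34 to 0.65, 0.12 to 0.32, -0.68 to -0.29 and -0.64 to -0.16. miR-16-5p is among the 5 most abundant and had no value without them.

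The other members changed sign under at least 1 alternative. miR-15a-3p was at -0.002 with library totals alone and at -0.0791 to 0.0706 with 1 library left out. Upper-quartile scaling gave 0.0035 for miR-15a-5p, 0.11 for miR-15b-5p and 0.044 for miR-16-2-3p. With 1 library left out miR-15b-5p ran from -0.143 to 0.0277, with 0.0014 without air replicate 2, and miR-195a-3p from -0.0423 to 0.3832, with -0.0015 without air replicate 2. The cause was not tested.

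Replicate numbers in the sample titles were not taken as pairs in the main fit. Deviations of same-numbered replicates correlated at 0.008, 0.059 and 0.198, which cannot show whether samples were paired. The deposited column names number some libraries otherwise than the titles do. With a replicate block miR-16-5p had a log2 fold change of 0.28 (adjusted p = 0.123 by edgeR) and miR-195a-5p of -0.55 (adjusted p = 0.185), 0 members passed and 3 had an unadjusted p under 0.05. Ratios kept their direction in every alternative, and with the block their exact permutation p was 0.25 to 0.75, where 0.25 is the smallest that 3 pairs can give.

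Without CAP replicate 1, chosen after seeing the data because of its miR-122-5p, the same 4 members did not overlap between the groups, beside 39.9% of all tested miRNAs. Without CAP replicate 2 there were 5, with miR-195a-3p added, beside 36.2%. As unscaled shares of counts, an alternative also chosen after seeing the data, there were 2, miR-16-5p and miR-195a-5p, beside 27.8%. miR-195a-3p had the fewest counts among the members, and 3 libraries of 1 cage per group limit all other values.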
